A study of Saccharomyces cerevisiae with 16 samples.

Results

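The 3' major domain of 18S rRNA, which folds into the head of the small ribosomal subunit, was examined at nucleotide resolution in pre-ribosomal particles of Saccharomyces cerevisiae. It was taken by position, from A1843 to C2337 of the 6647 nucleotides in the deposited pre-rRNA profile, that is from nucleotide 1143 to 1637 of 18S. The stretch held 225 A and C (116 A and 109 C), the bases at which dimethyl sulfate (DMS) is read, of 1236 in the SSU part of the profile, which ends at cleavage site A2 in ITS1, the spacer after 18S. An effective depth of at least 100 reads (usable reads covering a nucleotide) in all 16 libraries was reached at 216 of them. Between genotypes 141 were tested (96 A and 45 C), out of 725 in the whole SSU part. Besides A and C, the untreated rate was read at U1891, the hypermodified base of helix 31.

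The head is built around the nucleotide chain that follows the neck of the subunit, and in the mature ribosome it moves against the body as tRNA and mRNA pass. The loop of helix 31 reaches the P site, where the initiator and peptidyl tRNAs sit. Early in assembly the domain is part of the SSU (small subunit) processome, a large nucleolar particle that holds the 18S precursor while it is folded and cleaved, and assembly factors such as Enp1 and Ltv1 occupy the head until late cytoplasmic steps. U1891 of the profile is made into a pseudouridine by a guide RNA, methylated by Emg1 and completed by Tsr3 on late particles. Has1 is a DEAD-box RNA helicase needed for the assembly of the small subunit.

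There were 4 groups of 4 biological replicates. SSU processomes had been purified through a TAP tag on Utp10, a protein of the particle, from cells labelled Has1-WT or Has-1-H375A, here WT and H375A. All 4 groups therefore carried the tagged Utp10, and all cells were grown in YPD (rich medium) to mid-log phase. The treated libraries of each genotype came from exposure to 1% DMS at 30 °C for 5 min and the others were their untreated controls, with RNA recovered by phenol and chloroform. The sources used here do not give the strain background or the way in which the substituted Has1 was expressed. In DMS-MaPseq, accessible A and C are methylated on the edge that would base-pair, and reverse transcriptase copies a methylated base with errors, so the mutation rate (mutated reads as a percentage of effective depth) is the measure of reactivity.

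Median effective depth over the head ran from 225 to 1600 reads in 7 of the DMS libraries and was 4146 in H375A replicate 3. It ran from 228 to 1407 in the untreated ones except H375A replicate 3, with 4516. Mean depth of the head relative to the rest of 18S was 0.869 in WT and 0.763 in H375A with DMS, and 0.818 and 0.784 without, which did not differ detectably between groups (exact two-sided permutation test, adjusted p = 0.886 for each of 4 comparisons). The 9 A and C sites left out for depth lay between C1974 and C2006, where the shallowest library had 58 to 99 reads. The head held 49.3% G and C, against 43.1% in the rest of 18S. The median untreated rate over the head was 0.347% in WT and 0.355% in H375A.

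The sequences below, 5' to 3' and read from the deposited profiles, are shown because the results turn on them. The first holds helix 31 with U1891 in capitals. The second is the stretch with all sites of the head that differed between genotypes, and its capitals are A1926, A1927, A1944 and C1946. The third surrounds G2275, which becomes m7G in mature 18S, with A2277, A2283 and A2286 in capitals. The others hold 4 of the sites with the strongest DMS signal, and their capitals mark A2029, A2084, and the loops of 2 hairpins with A2060 and C2299.
Helix 31 (1881 to 1901): uuaauuugacUcaacacgggg
Stretch with the called sites (1908 to 1952): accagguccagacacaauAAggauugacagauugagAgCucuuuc
Stretch around the m7G base (2270 to 2292): acgaggaAuuccuAguAagcgca
Around A2029 (2019 to 2039): auaacgaacgAgaccuuaacc
Around A2084 (2074 to 2094): cacuucuuagAgggacuaucg
Hairpin at 2054 to 2069: gcuagcAUUUgcuggu
Hairpin at 2287 to 2309: agcgcaaguCAUCAgcuugcguu

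DMS raised the mutation rate at about as large a share of A and C sites in the head as elsewhere in the SSU part of the pre-rRNA. In WT, 101 of 216 sites (46.8%) were higher with DMS by edgeR's quasi-likelihood test at an adjusted p under 0.05, against 45.5% of all 1154 sites tested. In H375A it was 113 of 216 (52.3%), against 49.4% of 1153. Of the 216 sites, 93 were raised in both genotypes, 8 in WT alone and 20 in H375A alone, and 95 in neither. These counts do not show that a site differed between genotypes, which was tested separately. A sites were raised more often than C sites. In WT, 71 of 112 A sites (63.4%) and 30 of 104 C sites (28.8%) passed, and in H375A 80 (71.4%) and 33 (31.7%) did. Over the whole SSU part the shares were 57.4% of A and 28.1% of C in WT, and 61.6% and 31.5% in H375A.

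Averaged over the head, the rate at A was 1.32% ± 0.20 with DMS and 0.379% ± 0.042 without in WT (SD, n = 4), or 3.49 times as high. The H375A values were 1.32% ± 0.22 and 0.354% ± 0.066, or 3.74 times. At C the rise was smaller, from 0.351% ± 0.027 to 0.785% ± 0.065 in WT (2.23-fold) and from 0.352% ± 0.020 to 0.768% ± 0.068 in H375A (2.18-fold). For both bases and both genotypes every DMS library lay above every untreated library, and with DMS the genotypes overlapped. Each comparison of DMS with untreated had an adjusted p of 0.0571 (exact two-sided permutation test, adjusted over 8 tests) and did not pass 0.05. With 4 against 4 libraries no unadjusted p can fall below 0.0286. Replicate 1 had the lowest DMS rate at A of either genotype (WT 1.03%, H375A 1.02%), and the other 6 libraries had 1.33% to 1.52%. G and U, which are not the bases read by DMS, had 0.512% and 0.455% with DMS in WT against 0.427% and 0.420% without, and 0.485% and 0.453% against 0.446% and 0.423% in H375A.

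**Figure D1:**
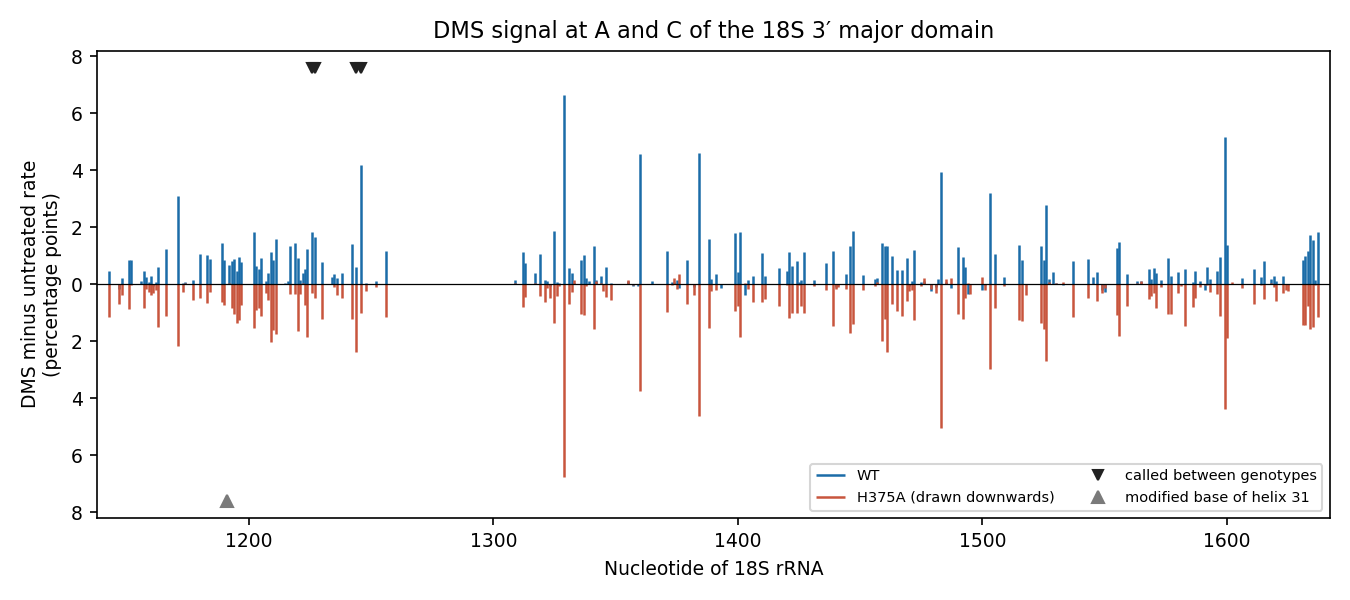
Mean DMS rate minus mean untreated rate (percentage points) at each A and C site with depth, by nucleotide of 18S, for WT (upwards) and H375A (downwards), with 4 libraries per group. A few isolated sites rise above 4 percentage points in both genotypes, the 4 sites called between genotypes (downward triangles) lie at 18S 1226 to 1246, and the empty stretch to their right holds the sites without depth and few A or C.

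The most reactive nucleotide of the head in either genotype was A2029 (18S 1329). Its DMS rate was 7.89%, 6.16%, 5.73% and 8.08% in WT replicates 1 to 4 and 4.11%, 9.09%, 7.94% and 6.56% in H375A. Untreated libraries averaged 0.308% and 0.151%. All 8 DMS libraries were far above all 8 untreated ones, and the genotypes overlapped. The log2 ratio of DMS to untreated was 4.42 in WT (SE 0.41, edgeR adjusted p = 2.74e-25) and 4.75 in H375A (SE 0.39, edgeR adjusted p = 1.07e-25).

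C2299 (18S 1599) was the strongest C, at 4.85%, 6.50%, 5.50% and 5.04% with DMS in WT and 3.74%, 4.83%, 5.53% and 5.64% in H375A. The log2 ratio to untreated was 4.50 (SE 0.38, edgeR adjusted p = 6.31e-31) and 3.45 (SE 0.34, edgeR adjusted p = 2.08e-19). C is on average the less reactive base, and C2299 nonetheless had rank 2 in WT and rank 4 in H375A among the A and C sites of the head. A2084 (18S 1384) read 5.78%, 5.61%, 4.84% and 4.41% in WT and 2.12%, 5.98%, 7.95% and 4.86% in H375A, so its libraries were spread more widely in H375A than in WT. A2183 (18S 1483) had means of 4.45% ± 0.40 and 5.42% ± 0.68 and A2060 (18S 1360) of 5.05% ± 1.29 and 3.88% ± 0.94 (SD, n = 4). The remainder of the 12 strongest sites were A2203, A2226, A1871, C1946, C2161, A2101 and C2159, whose DMS minus untreated rate, averaged over genotypes, ran from 3.10 down to 1.73 percentage points. All 12 were raised by DMS in both genotypes, which their choice by DMS minus untreated rate made likely beforehand.

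Some of these sites could be placed in simple hairpins. A search of the head's sequence for perfect stems of at least 6 base pairs (Watson-Crick or G-U, at least 3 of them G-C) closed by loops of 3 to 9 nucleotides found 5, of which 4 had A or C sites with depth. It used no measured value, and a match does not show that the stem is formed in the particle. The 8 loop sites were all raised by DMS in both genotypes, with a mean DMS minus untreated rate of 1.98 percentage points in WT and 1.75 in H375A. Of the 22 stem sites, 4 were raised in WT and 3 in H375A, with means of 0.322 and 0.306. The other 186 sites lay between, with 89 and 102 raised and means of 0.687 and 0.705. The classes differed in base, with A at 5 of the 8 loop sites, 8 of the 22 stem sites and 99 of the other 186. Since A was raised more often than C, base composition may have a part in this order, which was not tested. A2060 is in the loop auuu of the hairpin at 2054 to 2069, where the stem sites averaged 0.034 in WT and -0.041 in H375A, no signal above the untreated rate. C2299 is in the loop cauca of the hairpin at 2287 to 2309, in which all 4 A and C sites of the loop were raised and the stem averaged 0.197 and 0.130. The hairpin at 2199 to 2214 kept this order in its means but not at every site. Its stem averaged 0.813 in WT and 0.743 in H375A, below the loop's A2205 with 1.06 and 0.825. The stem's A2203, with 3.21 and 2.99 percentage points, lay above A2205.
Hairpin at 2199 to 2214, loop in capitals: gccgagAGGUcuuggu

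The pattern over the head was alike in both genotypes. Across the 216 sites the DMS minus untreated rates of WT and H375A had a Pearson correlation of 0.868 and a Spearman correlation of 0.765. This is a description across sites that share libraries and base composition. Of the 12 strongest sites in each genotype, 8 were shared.

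**Figure D2:**
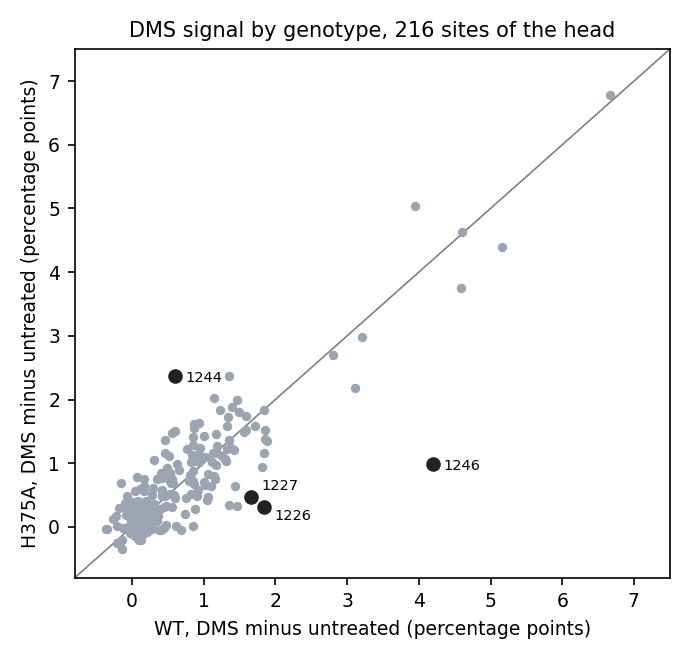
DMS minus untreated rate in H375A against WT (percentage points) at 216 A and C sites of the head, with the line of equality and the 4 sites called between genotypes in black, labelled by nucleotide of 18S. Sites above 4 points lie near the line except nucleotide 1246, which falls from 4.20 to 0.994 points.

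Between genotypes, reactivity differed at 4 sites of the head, 1 higher and 3 lower in H375A, all between A1926 and C1946. The comparison asked where the folding of the rRNA differs between the particles of the 2 genotypes, and used DMS rates scaled for each library so that the median site is equal. By edgeR's quasi-likelihood test 4 of 141 sites passed (2.84%), against 3.59% of the 725 sites over the SSU part, where 1.1% were higher and 2.48% lower in H375A. The share in the head is thus near the background. Rates did not overlap between the genotypes at 10 of the 141 sites (7.09%), 5 higher and 5 lower, against 5.79% of all 725. An unadjusted p under 0.05 was found at 16 (11.3%), against 12% of all. The median log2 change was 0.08 in the head and 0.02 over all sites, with 80 sites higher and 61 lower in H375A by the fitted change. With scaling taken from 25S, which moved all sites by -0.13, these numbers were 65 and 76.

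C1946 (18S 1246) had the largest fall in percentage points among the 4. Its scaled DMS rate was 4.23%, 4.65%, 5.19% and 3.45% in WT and 3.14%, 1.33%, 1.70% and 1.45% in H375A. The lowest WT library lay above the highest H375A library. The mean fell 2.30-fold, from 4.38% ± 0.74 to 1.91% ± 0.84 (SD, n = 4), with a log2 change of -1.45 ± 0.26 (SE) by edgeR and an adjusted p of 0.000165, while untreated rates were 0.355% and 0.885%. By DMS signal it had rank 5 in the head in WT and rank 62 in H375A. A1944 (18S 1244), 2 nucleotides before it, moved the other way.

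A1944 read 1.44%, 1.77%, 2.25% and 1.21% in WT and 3.60%, 4.93%, 3.02% and 2.82% in H375A. All 4 H375A libraries were above all WT libraries, and H375A replicate 2 was highest. The mean rose 2.15-fold (edgeR log2 change 0.94 ± 0.28 SE, adjusted p = 0.0385). Without DMS its rate was already 1.15% in WT and 1.26% in H375A. Against this background DMS raised it in H375A (log2 1.43, SE 0.33, edgeR adjusted p = 6.53e-05) but not detectably in WT (log2 0.66, SE 0.40, edgeR adjusted p = 0.176). The difference between these 2 DMS effects did not itself pass (log2 0.75, SE 0.50, edgeR interaction, adjusted p = 0.998).

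A1926 and A1927 (18S 1226 and 1227) are neighbours and both fell. A1926 read 2.55%, 2.09%, 1.67% and 1.72% in WT and 0%, 0.789%, 0.727% and 0.349% in H375A. The 0 in H375A replicate 1 was 0 of 200 reads, which allows a rate of up to 1.5%. The genotypes did not overlap, and the mean was 4.30-fold lower in H375A, at 0.466% ± 0.367 against an untreated 0.187%. The change fitted by edgeR, which works on read counts, was smaller than that of the means (log2 -1.49 ± 0.34 SE, adjusted p = 0.00285). In H375A with DMS, replicate 3 held 32 mutated reads, and replicates 1, 2 and 4 held 0, 7 and 1. A1927 read 1.29%, 2.20%, 2.02% and 2.26% in WT and 1.12%, 0.667%, 1.01% and 0.678% in H375A, so WT replicate 1 was the low library of its group and nearest to H375A. Its mean was 2.24-fold lower (edgeR log2 change -1.15 ± 0.30 SE, adjusted p = 0.0141). DMS still raised both sites in H375A, with a log2 ratio to untreated of 2.33 at A1926 (edgeR adjusted p = 0.000589) and 1.30 at A1927 (edgeR adjusted p = 0.018).

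**Figure D3:**
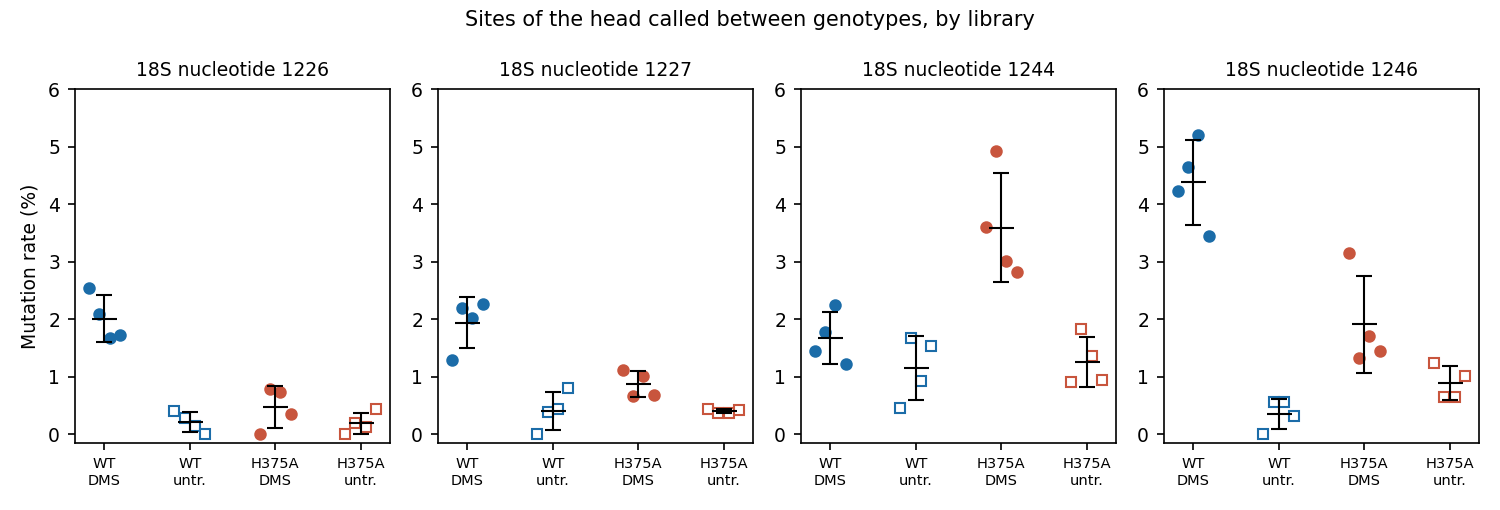
Mutation rate (%) in each library at the 4 sites called between genotypes, with DMS (filled circles, scaled) and untreated (open squares, unscaled), and lines for mean and SD (n = 4). WT and H375A do not overlap with DMS at any of the 4 sites, and nucleotide 1244 has the highest untreated rates.

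The calls did not rest equally on all libraries. C1946 passed in all 16 alternative settings that tested it. A1926 did not pass without WT replicate 2 (edgeR adjusted p = 0.0983) or H375A replicate 3 (0.0649). A1927 did not pass without WT replicate 2 (0.207), WT replicate 3 (0.0765), H375A replicate 2 (0.0951) or H375A replicate 3 (0.0902). A1944 did not pass without WT replicate 2 (0.238), WT replicate 3 (0.0677), WT replicate 4 (0.101) or H375A replicate 2 (0.297), nor without scaling (0.0902), with scaling from 25S (0.109) or by DESeq2 (0.126). By limma on background-subtracted rates A1926 (adjusted p = 0.066), A1927 (0.165) and A1944 (0.194) did not pass, and DESeq2 gave A1926 and A1927 no adjusted p. Effective depth at the 4 sites ran from 184 to 5095 reads.

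Near these sites most nucleotides did not pass. Of the 25 A and C sites between positions 1908 and 1952, 13 were raised by DMS in WT, 14 in H375A and 11 in both. Of the 19 tested between genotypes, 4 were called, and 11 of the 19 were higher and 8 lower in H375A by the fitted change. The ends of the stretch were set from the called sites, so it holds all 4 by choice. Its share of calls can therefore not be set against the 3.59% over the SSU part. A1923 and A1924, just 5' of the fallen pair, had scaled means of 0.713% and 1.34% in WT and 0.848% and 1.94% in H375A (log2 changes 0.36 and 0.54, edgeR adjusted p = 0.9 and 0.497). A1930, just 3' of it, was higher in all H375A libraries than in any WT library, 1.39% ± 0.22 against 0.845% ± 0.185 (SD, n = 4), but did not pass (edgeR log2 change 0.73 ± 0.37 SE, adjusted p = 0.421). A1942, next to the called pair at 1944 and 1946, had 1.85% in WT and 1.81% in H375A. C1922 and C1948 were not raised by DMS in either genotype and were not tested between them. A1917 and A1919, named here after their values had been seen, were at 1.5% and 1.85% in WT and at 0.910% and 0.978% in H375A (log2 changes -1.03 and -0.90, edgeR adjusted p = 0.112 for both).

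**Figure D4:**
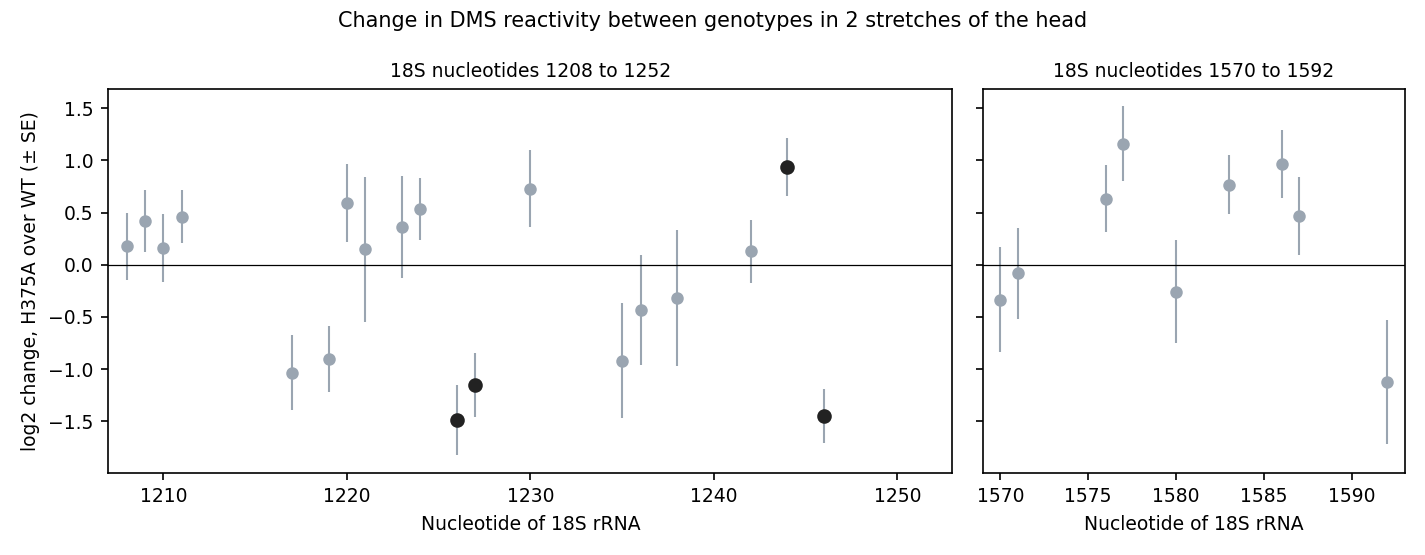
Log2 change of the DMS rate, H375A over WT, with its SE, at the tested A and C sites of the stretch with the called sites (left) and of the stretch around the m7G base (right), by nucleotide of 18S. Black points passed the edgeR test; falls at 1226, 1227 and 1246 stand beside a rise at 1244, and no site of the right panel passed.

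Outside that stretch no site of the head was called. A2277 (18S 1577), 2 nucleotides 3' of the m7G base that Bud23 makes, came nearest. It read 0.484%, 0.531%, 0.484% and 0.448% in WT and 1.10%, 0.876%, 1.14% and 1.64% in H375A. The WT libraries lay close together and all below H375A. The difference was 2.45-fold (edgeR log2 change 1.16 ± 0.36 SE, adjusted p = 0.0507), and the site did pass without H375A replicate 1. DMS raised it in H375A (edgeR adjusted p = 9.09e-07) and not detectably in WT (0.273), but the difference between these DMS effects did not pass (edgeR interaction, adjusted p = 0.696). Of the 13 A and C sites from 2270 to 2292, 9 were tested and 5 were higher and 4 lower in H375A by the fitted change. Among them, and named after their values had been seen, A2283 (18S 1583) had 1.10% in WT and 1.74% in H375A, and A2286 (18S 1586) 0.542% and 1.00% (log2 changes 0.77 and 0.96, edgeR adjusted p = 0.145 and 0.106). Untreated, A2286 had 0.494% in WT and 0.258% in H375A. WT thus had little DMS signal at A2286, which passed the pooled filter on DMS signal through H375A.

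At 4 further sites the genotypes did not overlap and differed by at least 1.5-fold without passing, among them A1930 above. A1847 (18S 1147) had 0.425% in WT and 0.898% in H375A (edgeR adjusted p = 0.656). Its untreated rates were 0.600% in WT and 0.189% in H375A, so WT had no DMS signal there. The filter on DMS signal pooled the genotypes, and A1847 passed it only through H375A. A2019 (18S 1319) had 1.03% and 0.409% (0.382), and C2337, the last nucleotide of the domain, 2.21% and 1.43% (0.39). C2161 (18S 1461), one of the 12 strongest sites, also had no overlap, with 2.02% ± 0.19 in WT and 2.99% ± 0.44 in H375A (SD, n = 4), with a log2 change of 0.49 ± 0.20 (SE) by edgeR and an adjusted p of 0.235.

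Most of the strongest sites did not differ detectably between genotypes. In H375A A2029 had a scaled mean of 6.73% ± 1.74, and in WT of 6.85% ± 1.87 (SD, n = 4), with a log2 change of 0.27 ± 0.18 (SE) by edgeR and an adjusted p of 0.604, so the fitted change and the difference of the means had opposite signs. C2299 had 5.29% ± 0.57 and 4.82% ± 0.39 (edgeR log2 change -0.13 ± 0.16 SE, adjusted p = 0.876), and A2203 3.77% ± 0.70 and 3.63% ± 0.54 (edgeR log2 change 0.01 ± 0.18 SE, adjusted p = 0.987), where the signs also differed. The differences of the 3 means were smaller than the spread between replicates. Across the 12, C1946 was the site that passed.

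When the DMS effect itself was compared between genotypes, by an interaction term over all 16 libraries, 0 of the 141 sites of the head passed and 0% of all 725 (edgeR, adjusted p under 0.05). An unadjusted p under 0.05 was found at 8 sites of the head and at 5.24% of all, and DESeq2 also called 0 in the head. C1946 had the lowest value, with a log2 difference of -2.05 (SE 0.59, unadjusted p = 0.000647, edgeR adjusted p = 0.22). The 4 calls above are therefore differences in the DMS rate, in which the untreated rate was not part of the test.

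Over longer stretches no difference was detected. The mean scaled rate over the 141 sites was 1.37% ± 0.03 in WT, with libraries from 1.33% to 1.40%, and 1.38% ± 0.05 in H375A, from 1.32% to 1.43% (SD, n = 4), with a log2 change of 0.02 ± 0.03 (SE) by limma and an adjusted p of 0.709 over 6 domains. The groups overlapped. The sign of this small change depended on the scaling, at -0.01 without scaling and -0.11 with scaling from 25S. In 5 windows of 99 nucleotides, the mean scaled rates of WT and H375A were 1.23% and 1.20%, 1.59% and 1.54%, 1.37% and 1.31%, 1.66% and 1.83%, and 1.19% and 1.26%, from the 5' to the 3' end. None passed, as over the SSU part (limma, 0% of 27 windows), and in none were the genotypes without overlap, against 14.8% of all windows. Among the 5, the largest difference was at positions 2140 to 2238, with 1.66% ± 0.06 in WT and 1.83% ± 0.15 in H375A (SD, n = 4), with a log2 change of 0.14 ± 0.07 (SE) by limma and an adjusted p of 0.206.

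The modified base of helix 31 was read from its own mutation rate, since m1acp3-pseudouridine disturbs reverse transcription without DMS. Untreated libraries had 1.73%, 11.6%, 11.0% and 8.97% at U1891 in WT replicates 1 to 4 and 0.256%, 3.39%, 4.17% and 1.31% in H375A. WT replicates 2 to 4 lay above all H375A libraries, and WT replicate 1 within their range. The means were 8.32% ± 4.54 and 2.28% ± 1.81 (SD, n = 4), 3.65-fold apart, and did not pass (exact two-sided permutation p = 0.0857, where 4 against 4 gives no p below 0.0286).

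The DMS libraries gave another reading of the same base, at 3.76%, 14.6%, 12.4% and 10.3% in WT and 1.56%, 2.93%, 4.77% and 2.67% in H375A. The means were 10.3% ± 4.67 and 2.98% ± 1.33 (SD, n = 4), 3.44-fold apart (exact two-sided permutation p = 0.0571). Again WT replicate 1 alone overlapped with H375A. The order of the replicates was the same with and without DMS in each genotype, and the rate was higher with DMS in 7 of 8 libraries set against their own control, by a median of 1.35 percentage points. H375A was below WT at each of the 4 replicate numbers in both treatments. Without WT replicate 1 the difference was -8.24 percentage points untreated and -9.45 with DMS (exact two-sided permutation p = 0.0286 for both, the smallest that 3 against 4 allow). That library was the one that overlapped, so leaving it out was bound to give the smallest p. With each of the other libraries left out in turn, p was 0.0857 to 0.114 untreated, at differences from -6.67 to -4.96 percentage points, and 0.0571 to 0.0857 with DMS, from -7.88 to -5.85.

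Depth at U1891 ran from 192 to 4409 reads, and the intervals of single libraries were correspondingly wide, 2.05% to 6.78% in WT replicate 1 with DMS and 4.15% to 5.48% in H375A replicate 3 (95% Wilson interval, counting error only). Reads pooled over replicates gave 10.1% (8.96% to 11.3%) in WT and 3.67% (3.23% to 4.17%) in H375A without DMS, and 12.3% (11.1% to 13.6%) and 4.26% (3.74% to 4.85%) with it, in which the deepest libraries weigh most. The libraries compared for DMS reactivity thus also had different mean rates at this base. Whether the share of rRNA modified at this base has a part in the 4 called sites was not tested. Nor was it tested whether that rRNA came from the processome or from later particles purified with it. In WT replicate 1, which had the low mark, C1946 read 4.23% and A1926 2.55%, within or above the range of the other WT libraries, and A1944 read 1.44%, within it, while A1927 read 1.29%, below the other WT libraries.

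**Figure D5:**
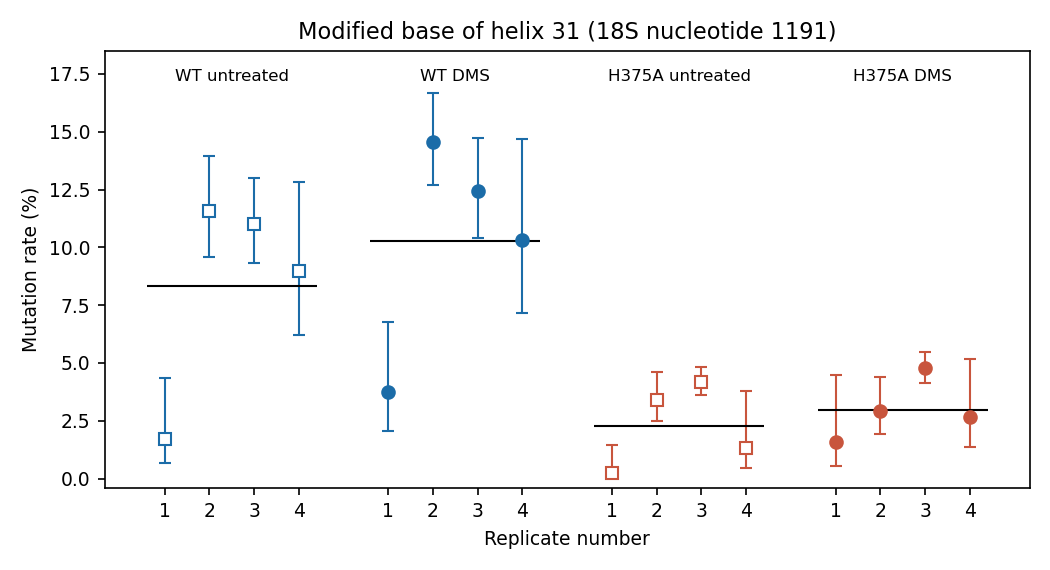
Mutation rate (%) at the modified base of helix 31 in each of the 16 libraries, by group and replicate number, with 95% Wilson intervals and a line at each group's mean. Replicate 1 is the lowest of its group in all 4 groups, and WT replicates 2 to 4 lie above every H375A library of the same treatment.

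Around this base no difference in DMS rate between genotypes was detected. In WT the 10 A and C sites within 10 nucleotides of U1891 had mean DMS rates of 0.928% to 2.17%, and in H375A they had 0.487% to 1.82%. Of these sites, 8 were raised by DMS in WT, 9 in H375A and 7 in both, where 45.5% of all SSU sites were raised in WT and 49.4% in H375A. Between genotypes 0 of the 10 passed, with log2 changes from -0.55 to 0.60 and a lowest edgeR adjusted p of 0.517. Over the SSU part 3.59% passed, so 10 sites are too few to tell a lower share. C1890 and C1892, on either side of the base, had scaled means of 1.16% and 0.891% in WT and 1.30% and 0.610% in H375A. A1889 had 2.16% ± 1.03 and 1.13% ± 0.78 (SD, n = 4), with a log2 change of -0.48 ± 0.31 (SE) by edgeR and an adjusted p of 0.604, and its H375A replicate 1 was at 0.

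In the untreated libraries 26 positions of the head, of any base, had at least 10 mutated reads on average. With no block for the replicate number, none was called between genotypes by edgeR, as in the SSU part as a whole (0% of 554), and none by DESeq2. An unadjusted p under 0.05 was found at 1 position of the head and at 1.44% of all. The position was U1891 (log2 change -1.70, SE 0.51, unadjusted p = 0.00291, edgeR adjusted p = 0.997). With a block for the replicate number U1891 was called, as given at the end. U2211 (18S 1511) also mutated without DMS, at 2.0% ± 0.92 in WT and 1.93% ± 0.72 in H375A (SD, n = 4). A1975 (18S 1275), which was too shallow for the tests, had 2.31% ± 1.62 and 1.00% ± 0.46.

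Most of the other modified bases that were listed here gave little signal, and the list may not hold every modified base of the head. The pseudouridines U1881, U1887, U1990 and U2115 averaged 0.106% to 0.863% over both genotypes, and the ribose-methylated G1971, G2128 and G2272 0.222% to 0.592%. The ribose-methylated U1969 was higher, at 1.37% ± 0.63 in WT and 2.03% ± 0.77 in H375A. G2275, the m7G base, read 0.675% ± 0.157 in WT, from 0.513% to 0.870%, and 0.215% ± 0.171 in H375A, from 0 to 0.407%. These untreated groups did not overlap, but the position had too few mutated reads for the test above. The share of all untreated positions without overlap was not counted, so this has no background to be set against. With DMS they did overlap, at 0.784% ± 0.159 and 0.561% ± 0.323 (SD, n = 4).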

How the data were processed

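DMS-MaPseq profiles of 16 libraries were used, 4 per genotype and treatment, each with a row per nucleotide. The deposited counts are mutated reads, read depth and effective depth, and the deposited fraction is the mutation rate, which by the values equals mutated reads over effective depth, with no untreated rate subtracted, per the file headers. Reads were assigned by the authors to a pre-rRNA of 6647 nucleotides; names of the aligner and mutation caller, and any read filters, are not given in the sources used here, and PCR copies were not marked. Positions count from 1 in the profile, with 18S at 701 to 2500, the head at 1843 to 2337 (495 nucleotides) and the SSU part ending at 2712. No genome build was named, so no genome coordinates are given. The length of 18S is that of RefSeq's yeast annotation. The Sequence column was printed as deposited.

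Mutated reads were tested in R 4.3.3 by edgeR 4.0.16 (quasi-likelihood), with log effective depth as offset and Benjamini-Hochberg adjustment over all SSU sites. The SE printed with an edgeR value was derived from the test, as the absolute log2 change over the square root of the F statistic. For changes near 0 this SE is unreliable. Sites needed an effective depth of 100 in all libraries. Between genotypes the offset held a library scaling factor (the median ratio of rates over 594 sites, 0.847 to 1.13), the mean DMS rate had to be 0.2 percentage points above the untreated rate, and the untreated rate under 5%. These means were taken over both genotypes together, so a site could be tested through its signal in 1 genotype. Region means were fitted with limma 3.58.1 on log2 values, which were computed here from the deposited fractions. DESeq2 1.42.0 was an alternative. The edgeR tests between genotypes with DMS and of DMS in WT, and a limma fit of 6 domains, were tried on simulated data. Each DMS library has an untreated control in the design, and their deviations over sites correlated by 0.017 to 0.348 within genotypes. Pairing them changed the count of raised sites from 101 to 97 in WT and left it at 113 in H375A.

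Sites were named where called, where the genotypes did not overlap and differed by at least 1.5-fold, among the 12 strongest, within 10 nucleotides of U1891 or 4 of a called site, or as modified bases, whose positions were entered from general knowledge. The head, the lists and the tests were chosen with earlier results of these data known.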

Additional observations from a re-analysis of the deposited data

Results flagged for a closer look

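Of 168 group values at named sites and regions, 8 had a library far from the other 3 by Dixon's test, where chance, at about 1 in 20, gives 8.4. With DMS, WT replicate 1 read 0.420% at C1897 against scaled rates of 2.15% to 2.42%, and H375A replicate 4 read 1.06% at A1924 against 2.11% to 2.30%. Untreated, WT replicate 4 read 0.255% at A1871 (others 0.876% to 0.980%) and 0% at C1890 (0.417% to 0.494%), and WT replicate 2 read 0.734% at A2277 (0% to 0.0659%). H375A replicate 4 read 0% at A1847 (0.235% to 0.264%). At A2019 replicate 3 was the untreated library with any mutated read in both genotypes, at 0.188% in WT and 0.0510% in H375A.

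The DMS effect at A1847 ran in opposite directions, with DMS minus untreated rates of -0.158 percentage points in WT and 0.685 in H375A, a difference of 0.843. The interaction test did not call it (edgeR adjusted p = 0.557). The mean rate at G in the head, which was not part of the comparisons at A and C, was 0.512% with DMS in WT, above the untreated range of 0.407% to 0.451%.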

How the results depend on the processing

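Of 313 alternatives computed over 25 results, 265 left the direction and the side of the threshold as they were, with counts within 1.5 times. The 4 sites called between genotypes became 2 with a depth minimum of 200 reads, 1 with DESeq2 (114 of 141 sites had no adjusted p there), 1 with limma on background-subtracted rates and 7 without replicate 1 of both genotypes, and 1 to 5 with a library left out; C1946 was the site left under DESeq2 and limma. Mean reactivity of the head turned to -0.00894 (log2) without scaling and -0.108 with scaling from 25S. Differences of mean rates between genotypes that were near 0 changed sign with a depth minimum of 50: at A with DMS -0.0200 percentage points, at C with DMS 0.00705 and at C untreated -0.00494. With a library left out they ran from -0.0979 to 0.102, from -0.0482 to 0.0113 and from -0.00685 to 0.0128, and at A untreated from -0.0446 to 0.00657. The difference at U1891 ran from -8.24 to -4.96 untreated and from -9.45 to -5.85 with DMS, and the log2 difference in depth of the head from -0.217 to 0.0340 (untreated, between genotypes) and from -0.142 to 0.115 (DMS against untreated in H375A). Sites raised by DMS numbered 75 to 104 in WT and 81 to 117 in H375A. The cause of these shifts was not tested.

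Same-numbered libraries of the 2 genotypes correlated by 0.0192 to 0.117 with DMS and by 0.0968 to 0.421 untreated, so the numbers do not pair them throughout; untreated, each WT library correlated best with its own number, a hint from the data and not the design. With the replicate number as a block, 4 sites were again called with DMS, and 1 position was called untreated, U1891 (log2 change -1.72, SE 0.28, edgeR adjusted p = 5.24e-07). It left 97 sites raised by DMS in WT and 113 in H375A, and the other results on their side of the threshold. At depths of 184 to 207 reads in the shallowest libraries, rates near 1% rest on a few mutated reads.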
